A study of Mus musculus with 18 samples.

Results

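The genes that carry lactate and its relatives across the plasma membrane, with the chaperones that take these carriers to the cell surface, were examined in the retinal pigment epithelium (RPE) of *rd1* mice. They were given as a list of 8 genes: the monocarboxylate transporters *Slc16a8*, *Slc16a1*, *Slc16a6*, *Slc16a3* and *Slc16a7*, the sodium-coupled transporter *Slc5a8*, and the chaperones *Bsg* and *Emb*. Each matched 1 of the 47729 genes in the count table, and all 8 were among the 18958 genes that passed the count filter. The mice were of the *rd1* strain, which lacks *Pde6b* function and loses its rods early, and were P40 when the eyes were taken. In each of 9 mice, 1 eye had been given AAV with the human *Nrf2* cDNA behind the Best1 promoter, which is active in the RPE, mixed with AAV-Best1-GFP (Best1-Nrf2 eyes), and the other eye AAV-Best1-GFP without the Nrf2 vector (control eyes). Both groups thus carried the *rd1* mutation and the GFP vector, and since the Best1-Nrf2 eye received an additional vector, vector load and Nrf2 cannot be told apart. RNA came from the eyecup after removal of the retina, so that RNA of other cells could be present, and in such bulk RNA fewer cells of a type and less RNA per cell cannot be told apart. The comparison between the eyes of a mouse asked how Nrf2 changed the transcriptome of the RPE.

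There were 9 libraries per group, with totals of 18956748 to 44054836 counts in control and 32839893 to 49598700 counts in Best1-Nrf2 eyes. *Nfe2l2*, the mouse gene for Nrf2, rose with Best1-Nrf2 in 9 of 9 mice with no overlap between the groups (log2 fold change, 2.29, SE 0.21), although human and mouse reads were not told apart. The RPE identity of the samples was checked with 18 marker genes, all of which passed the count filter. Their summed level ranged from 12454 to 65703 CPM (counts scaled to a common library total) in control eyes, with a median of 39359 CPM, and from 15172 to 68938 CPM in Best1-Nrf2 eyes, with a median of 20718 CPM. Of the 18, *Ttr* had the highest mean in both groups. It alone ranged from 3711 to 39827 CPM in control and from 6499 to 54488 CPM in Best1-Nrf2 eyes. The control eye of mouse 8 stood apart. It had the smallest library and the smallest difference in *Nfe2l2* between the eyes (1.13 on the log2 scale), and its mean RPE marker level was 7.84 on the log2 CPM scale, against 8.90 in the next control eye. Values without this mouse are given beside those of the 8 genes in which it stood apart.

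Lactate crosses membranes together with a proton through monocarboxylate transporters (MCTs), in either direction according to the gradient. Photoreceptors make lactate from glucose, and the RPE takes it up at its apical face and releases it towards the choroid at its basolateral face. The apical form in the RPE is MCT1, the product of *Slc16a1*, and the basolateral form is MCT3, the product of *Slc16a8*, which among tissues is largely limited to the RPE and choroid plexus. Neither reaches the surface without basigin, an immunoglobulin-family protein encoded by *Bsg*. Embigin, the product of *Emb*, is a relative of basigin that can do the same, mainly for MCT2.

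Among the 8 genes, 5 had a promoter window in RefSeq (GRCm38.p6; 250 bases before to 50 bases after the start), namely *Slc16a1*, *Slc16a8*, *Slc16a3*, *Slc5a8* and *Emb*. The windows of the apical and the basolateral form are shown, since the comparison of these forms is the one on which the description turns, with any match to 3 motifs in capitals. The motifs were TGACNNNGC, the core of the antioxidant response element that Nrf2 binds with a small Maf partner, CACGTG, an E-box, and TAATCC, which Otx2 and Crx bind, searched on both strands. The *Slc16a1* window is chr3:104638414-104638713 on the plus strand, and the *Slc16a8* window is chr15:79254699-79254998 on the minus strand.
Slc16a1: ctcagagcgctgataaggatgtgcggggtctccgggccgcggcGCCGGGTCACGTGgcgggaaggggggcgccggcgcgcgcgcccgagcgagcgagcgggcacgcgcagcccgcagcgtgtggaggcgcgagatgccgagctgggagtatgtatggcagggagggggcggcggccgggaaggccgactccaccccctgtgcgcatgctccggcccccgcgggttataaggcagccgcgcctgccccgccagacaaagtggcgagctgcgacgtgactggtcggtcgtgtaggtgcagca
Slc16a8: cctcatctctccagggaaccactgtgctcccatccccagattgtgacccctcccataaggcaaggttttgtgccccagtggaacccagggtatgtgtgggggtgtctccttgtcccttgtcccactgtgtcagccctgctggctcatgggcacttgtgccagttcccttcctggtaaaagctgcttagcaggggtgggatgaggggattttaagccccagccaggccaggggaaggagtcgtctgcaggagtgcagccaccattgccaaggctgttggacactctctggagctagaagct
In the *Slc16a1* window, the capitals hold a match to TGACNNNGC, read on the opposite strand, from position -207 (the start being 1), and a match to CACGTG from position -200 that overlaps it. The *Slc16a8* window held none of the 3 motifs, nor did the other 3 windows. Of 32851 windows of all genes, 12.4% held TGACNNNGC, 7.15% held CACGTG and 7.06% held TAATCC. A match describes these letters only.

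Levels of different genes were compared as CPM per kilobase of exon (CPM per kb), which takes account of gene length. *Bsg* had the highest level of the 8 genes in control eyes, 2285 ± 682 CPM per kb (SD, n = 9). The basolateral form *Slc16a8* followed with 774 ± 347 CPM per kb, and the apical form *Slc16a1* with 133 ± 94.5 CPM per kb. This order held in all 9 control and all 9 Best1-Nrf2 eyes, and the mean of *Slc16a8* was 5.84 times that of *Slc16a1* in control eyes. The other carriers were far lower. *Slc16a6*, whose product (MCT7) is known as an exporter of ketone bodies from the liver, had 8.68 ± 4.29 CPM per kb, *Slc5a8* had 7.00 ± 4.39 CPM per kb and *Emb* had 3.86 ± 1.41 CPM per kb. Their spreads overlapped: *Slc16a6* was above *Slc5a8* in 6 of 9 control and 3 of 9 Best1-Nrf2 eyes. *Slc5a8* was above *Emb* in 7 of 9 control and 6 of 9 Best1-Nrf2 eyes. When the longest transcript was used as the length, the *Emb* level was 9.12 CPM per kb and it was above that of *Slc5a8* in most control eyes. *Slc16a3*, for MCT4 of glycolytic tissues, and *Slc16a7*, for the high-affinity MCT2 of neurons, were lowest, with 0.266 ± 0.202 and 0.166 ± 0.087 CPM per kb. *Slc16a3* was the higher of these in 6 of 9 control and 9 of 9 Best1-Nrf2 eyes.

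**Figure D1:**
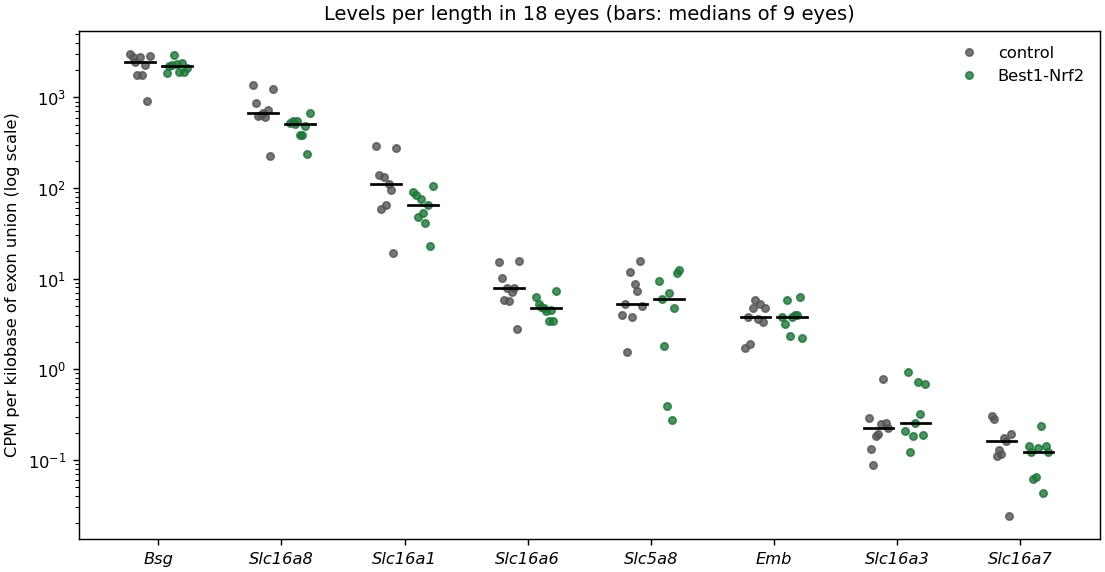
Level of each gene in CPM per kilobase of exon union (log scale) in 9 control (grey) and 9 Best1-Nrf2 (green) eyes, with bars at the medians. *Bsg*, *Slc16a8* and *Slc16a1* lie above the other 5 genes in every eye, though in the control eye of mouse 8 *Slc16a1* (19.2) is near *Slc5a8* (15.5), and *Slc16a3* and *Slc16a7* lie below 1 CPM per kb in every eye.

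By the paired edgeR model (threshold, adjusted p of 0.05), 1 of the 8 genes differed between the eyes, *Slc16a6*, which was lower with Best1-Nrf2. Over all genes tested, 4.25% differed, 3.12% being higher and 1.13% lower, and a single gene of 8 is too few to set the list apart from this background. For none of the 8 genes were the groups free of overlap, against 1.17% of all genes. The median log2 fold change of the 8 genes was -0.45, and that of all genes tested was -0.03. The carriers *Slc16a8*, *Slc16a1* and *Slc16a6*, were lower with Best1-Nrf2 in 8 of 9 mice, mouse 8 being the exception for each. A fall in at least 8 of 9 mice was seen for 5.11% of all genes tested.

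**Figure D2:**
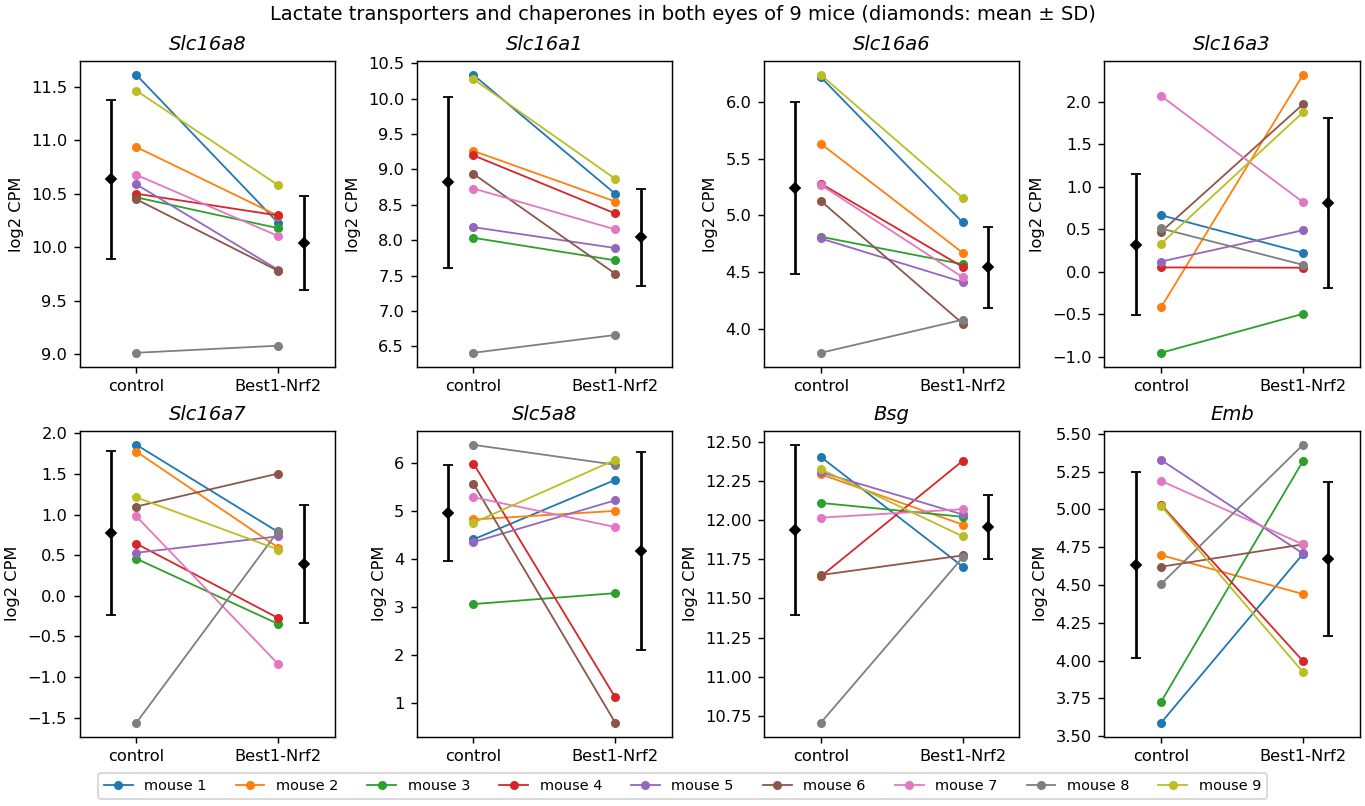
Log2 CPM of the 8 genes in the control and the Best1-Nrf2 eye of each mouse, joined by a line per mouse, with diamonds and bars for the mean ± SD of 9 eyes. The lines of *Slc16a8*, *Slc16a1* and *Slc16a6* fall in every mouse other than mouse 8, whereas those of *Bsg* and *Emb* cross.

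*Slc16a8* (ENSMUSG00000032988, GRCm38 chromosome 15, 79251014–79254761, minus strand, protein coding) encodes the basolateral carrier. Its level in control eyes was 516 CPM at the lowest, 1537 CPM at the median and 3126 CPM at the highest, and in Best1-Nrf2 eyes 540, 1158 and 1530 CPM. The control eyes of mice 1 and 9 (3126 and 2822 CPM) were the highest of all 18, while both eyes of mouse 8 were the lowest of their groups. The group means were 1761 ± 790 CPM and 1089 ± 286 CPM, control first (SD, n = 9 per group). A log2 fold change of -0.60 (SE 0.19, 95% interval -1.01 to -0.19) did not pass over all genes tested (edgeR, adjusted p = 0.131). It passed with DESeq2 (-0.60, adjusted p = 0.0142) and with voom (-0.63, adjusted p = 0.0209), and was -0.68 (edgeR, adjusted p = 0.0821) without mouse 8 and -0.40 (adjusted p = 0.535) without mice 1 and 9.

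*Slc16a1* (ENSMUSG00000032902, chromosome 3, 104638668–104658462, plus strand, protein coding) encodes the apical carrier. Control eyes had 85.0 CPM at the lowest, 490 CPM at the median and 1291 CPM at the highest, and Best1-Nrf2 eyes had 101, 285 and 467 CPM. As for *Slc16a8*, the control eyes of mice 1 and 9 (1291 and 1238 CPM) were the highest of all 18, and the eyes of mouse 8 were the lowest of each group. The group means were 587 ± 418 CPM and 288 ± 117 CPM, control first (SD, n = 9 per group). On the log2 scale the change was -0.77 (SE 0.22, 95% interval -1.25 to -0.30, edgeR, adjusted p = 0.0780). The call depended on the setting. It passed under upper-quartile scaling (adjusted p = 0.0459), with DESeq2 (0.00898), with voom (0.0202) and without mouse 8 (-0.90, adjusted p = 0.0315), but without mice 1 and 9 the change was -0.51 (adjusted p = 0.425).

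Whether the basolateral and the apical form moved unequally was asked from their ratio within each library, which does not depend on library scaling. The difference of log2 CPM, *Slc16a8* minus *Slc16a1*, ranged from 1.19 to 2.60 in control eyes and from 1.57 to 2.46 in Best1-Nrf2 eyes. Its mean change from control to Best1-Nrf2 eyes was 0.18 ± 0.40 (SD, n = 9 mice), with a range over mice of -0.50 to 0.74, and it was higher in 7 of 9 mice. The mean change was smaller than its SD over mice, and it did not pass (2-sided exact sign-flip permutation test against a change of 0, p = 0.211, adjusted p = 0.281 over 4 ratios). The control eyes with the lowest ratios, those of mice 9, 1 and 4, had 3 of the 4 highest *Slc16a1* levels. *Slc16a8* was also set against the mean of the 18 RPE markers in the same library. That difference was 1.60 ± 0.28 in control and 1.65 ± 0.33 in Best1-Nrf2 eyes, a change of 0.05 ± 0.22 with a range over mice of -0.37 to 0.34 (SD, n = 9, exact sign-flip p = 0.50, adjusted p = 0.50). This mean change was also smaller than its SD over mice. Of the RPE markers, 7 of 18 were lower over all genes tested and none was higher, and their mean was lower in 8 of 9 mice. These 7 were *Rpe65*, *Rlbp1*, *Lrat*, *Rdh5*, *Rgr*, *Ermn* and *Slc6a20a*, the first 5 of which serve the visual cycle. Of the rest, *Best1* (log2 fold change, 0.97, edgeR, adjusted p = 0.0555, higher in 9 of 9 mice), *Ttr* (0.44) and *Tyrp1* (0.08) were above 0. The others lay between -0.56 (*Pmel*) and -0.16 (*Rrh*). When the mean RPE marker level was a covariate in the model, the log2 fold changes were -0.04 for *Slc16a8* (adjusted p = 0.949), -0.06 for *Slc16a1* (adjusted p = 0.936) and -0.05 for *Slc16a6* (adjusted p = 0.924). The marker mean joins the 7 called genes (-2.81 to -0.96) with the uncalled ones, and *Slc16a8* (-0.60) lay between these sets. Results set against this mean thus depend on the markers listed, which was not tested.

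*Slc16a6* (ENSMUSG00000041920, chromosome 11, 109450855–109473598, minus strand, protein coding) was the gene that passed. Its level was 13.7 CPM at the lowest, 38.5 CPM at the median and 75.6 CPM at the highest in control eyes, and 16.4, 23.3 and 35.6 CPM in Best1-Nrf2 eyes. The groups overlapped, and the control eyes of mice 9 and 1 (75.6 and 74.5 CPM) were again the highest. The mean fell from 42.4 ± 20.95 CPM in control eyes to 23.9 ± 6.13 CPM (SD, n = 9 per group), which was -0.71 on the log2 scale (SE 0.18, 95% interval -1.09 to -0.32, edgeR, adjusted p = 0.0461). The call was close to the threshold. It was lost without the replicate block for mouse (-0.83, adjusted p = 0.112), with no count filter (-0.68, adjusted p = 0.114), without mice 1 and 9 (-0.52, adjusted p = 0.356) and without any single mouse other than mouse 8 (adjusted p from 0.0685 to 0.174). Its exons share 1052 bases with *Amz2* on the opposite strand, whose log2 fold change was 0.24 (adjusted p = 0.608), and reads from there cannot be told apart without strand information.

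*Bsg* (ENSMUSG00000023175, chromosome 10, 79704491–79711969, plus strand, protein coding) is the chaperone of both RPE carriers. Control eyes had 1669 CPM at the lowest, 4425 CPM at the median and 5425 CPM at the highest, and Best1-Nrf2 eyes had 3337, 4019 and 5333 CPM. The lowest of all 18 eyes was the control eye of mouse 8, and the next was the control eye of mouse 4 (3194 CPM). The group means were 4145 ± 1236 CPM and 4017 ± 605 CPM, control first (SD, n = 9 per group). The log2 fold change was 0.01 (SE 0.23, adjusted p = 0.992, higher in 4 of 9 mice), with a 95% interval of -0.49 to 0.52, and it was -0.11 without mouse 8. It was 0.76 with the mean RPE marker level and 0.57 with the mean rod and cone marker level as a covariate, above that interval, and did not pass (adjusted p = 0.291 and 0.567). Photoreceptors splice a longer form of basigin, which gene-level counts cannot part from the common one.

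*Emb* (ENSMUSG00000021728, chromosome 13, 117208536–117274415, plus strand, protein coding) had 11.99 CPM at the lowest, 25.9 CPM at the median and 40.1 CPM at the highest in control eyes, and 15.1, 26.1 and 43.0 CPM in Best1-Nrf2 eyes. The groups covered nearly the same range. Its log2 fold change was 0.03 (SE 0.30, 95% interval -0.62 to 0.67, adjusted p = 0.988, higher in 4 of 9 mice). It was higher by 0.92 to 1.59 in mice 1, 3 and 8 and lower by more than 1 in mice 4 and 9, on the log2 scale. With the same covariates it was 0.63 and 0.36 (adjusted p = 0.586 and 0.814). Of its 31-base words, 7.67% occur in other genes, and 686 bases of its exons lie opposite *Gm17509*.

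The level of the chaperone relative to its carriers was then compared within libraries. *Bsg* minus *Slc16a8* on the log2 CPM scale ranged from 0.80 to 1.72 in control and from 1.32 to 2.68 in Best1-Nrf2 eyes. It rose in 9 of 9 mice, by 0.62 ± 0.27 (SD, n = 9, exact sign-flip p = 0.0039, adjusted p = 0.0078 over 4 ratios), which is 1.53-fold. *Bsg* minus *Slc16a1* ranged from 2.05 to 4.30 in control and from 3.03 to 5.10 in Best1-Nrf2 eyes. It also rose in 9 of 9 mice, by 0.79 ± 0.54 (SD, n = 9, exact sign-flip p = 0.0039, adjusted p = 0.0078), which is 1.73-fold. The p value is the smallest that 9 pairs can give. Without the pairing by mouse, the change against *Slc16a8* passed (exact permutation test, adjusted p = 0.0132) and that against *Slc16a1* did not (p = 0.0488, adjusted p = 0.0976). Mouse 8, in which *Slc16a8* and *Slc16a1* were not lower, had the largest rise of *Bsg* (1.06 on the log2 scale) and so showed the same direction of both ratios as the other mice. Without mouse 8 the changes were 0.57 and 0.79 (exact sign-flip p = 0.0078 each, the smallest that 8 pairs can give). Both changes had the same direction without mice 1 and 9 (0.63 and 0.74, exact sign-flip p = 0.0156 each, the smallest that 7 pairs can give). A rise relative to *Slc16a8* in all 9 mice was seen for 14% of all genes tested, and a rise relative to *Slc16a1* in all 9 for 16.3%, so these ratios are not particular to *Bsg*.

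**Figure D3:**
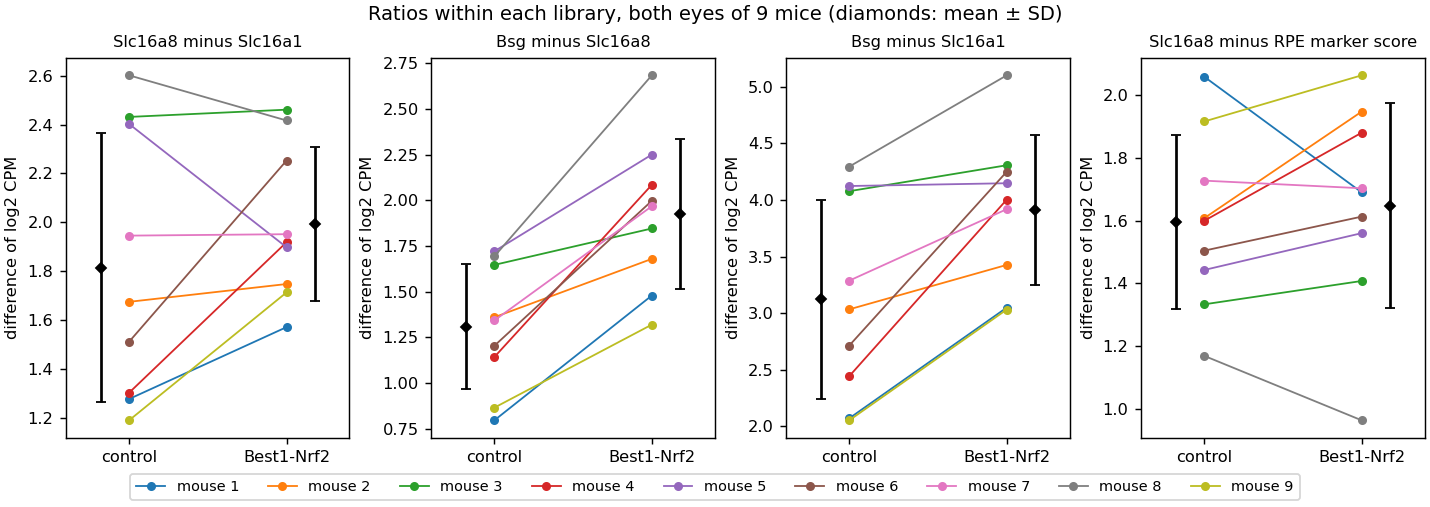
Differences of log2 CPM within each library for 4 pairs of measures, with a line per mouse from the control to the Best1-Nrf2 eye and diamonds for the mean ± SD of 9 eyes. The lines of *Bsg* against both carriers rise in 9 of 9 mice, whereas those of *Slc16a8* against *Slc16a1* and against the mean of the RPE markers go both ways.

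The carriers at low level did not pass. *Slc16a3* (ENSMUSG00000025161, chromosome 11, 120948480–120960868) had from 0.463 to 4.13 CPM in control and from 0.655 to 4.91 CPM in Best1-Nrf2 eyes, with medians of 1.20 and 1.35 CPM. The highest control eye was that of mouse 7, and the Best1-Nrf2 eyes of mice 2, 6 and 9 were above the other 6. Its log2 fold change was 0.50 (SE 0.43, 95% interval -0.45 to 1.44, adjusted p = 0.748). *Slc16a7* (ENSMUSG00000020102, chromosome 10, 125219270–125389465) had from 0.285 to 3.57 CPM in control and from 0.504 to 2.78 CPM in Best1-Nrf2 eyes, with medians of 1.91 and 1.46 CPM. It was lower in 6 of 9 mice (-0.47, SE 0.42, 95% interval -1.39 to 0.44, adjusted p = 0.755). Both values moved with single mice. *Slc16a3* was 0.23 without mouse 2, and *Slc16a7* was -0.75 (adjusted p = 0.324) without mouse 8 and -0.29 without mouse 7. They also moved with the setting, and did not pass. With voom *Slc16a3* was 0.12 and *Slc16a7* -0.87. With the mean macrophage and microglia marker level as a covariate they were 1.01 and -1.12. *Slc16a7* was -0.94 with the log2 library total as a covariate. The intervals include a 2-fold rise of *Slc16a3* and a 2-fold fall of *Slc16a7*.

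*Slc5a8* (ENSMUSG00000020062, chromosome 10, 88885992–88929515, plus strand) encodes a carrier that draws lactate, pyruvate and ketone bodies in with sodium. The difference between the eyes of a mouse had a wider range than for any of the other 7 genes. Control eyes had 8.26 CPM at the lowest, 28.1 CPM at the median and 82.5 CPM at the highest, and Best1-Nrf2 eyes had 1.45, 31.8 and 66.4 CPM. The Best1-Nrf2 eyes of mice 6 and 4 (1.45 and 2.11 CPM) were far below their fellow eyes (46.9 and 63.0 CPM), by 4.97 and 4.86 on the log2 scale. In the other 7 mice the difference lay between -0.62 and 1.31. The log2 fold change over 9 mice was -0.42 (SE 0.70, 95% interval -1.95 to 1.12, adjusted p = 0.906), with the Best1-Nrf2 eye higher in 5 mice. It was -0.01 without mouse 4 and likewise without mouse 6, -0.69 without mouse 9, -0.99 without mice 1 and 9, and -4.42 (adjusted p = 0.0695) with the mean rod and cone marker level as a covariate. With the mean RPE marker level as a covariate it was -1.20 (adjusted p = 0.656), and with that of macrophage and microglia markers -2.57 (adjusted p = 0.992). With voom it was -0.20 (adjusted p = 0.886).

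Other genes of lactate transport and use were taken from 4 further lists. Of 10 other members of the SLC16 family and of the sodium-coupled carriers, 8 were tested and 1 passed. This was *Slc16a4*, an orphan member of the family (MCT5), which rose from 18.3 ± 5.51 CPM in control eyes to 52.0 ± 18.9 CPM (SD, n = 9 per group), which was 1.51 on the log2 scale (SE 0.24, edgeR, adjusted p = 0.00251). It was higher in 9 of 9 mice, as were 3.12% of all genes tested. The median of this list was 0.22. Of 18 genes of lactate and pyruvate metabolism, 17 were tested and none passed in either direction (median, 0.12). They included *Ldha* (-0.11, adjusted p = 0.897), whose subunit favours lactate formation, and *Ldhb* (0.64, adjusted p = 0.184, higher in 8 of 9 mice), whose subunit favours lactate use. Of 8 relatives, ligands and partners of basigin, 1 passed (median, 0.06). This was *Nxnl1*, the gene of rod-derived cone viability factor, which is made by photoreceptors and binds their form of basigin. It fell from 30.8 ± 17.4 to 3.25 ± 2.15 CPM (log2 fold change, -3.26, SE 0.39, adjusted p = 4.07e-04). It was lower in 9 of 9 mice, as were 1.22% of all genes tested. *Slc2a1*, the glucose transporter that partners basigin, had -0.14 (adjusted p = 0.913). Of 12 genes of proton and bicarbonate handling, 11 were tested and none passed (median, -0.21).

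**Figure D4:**
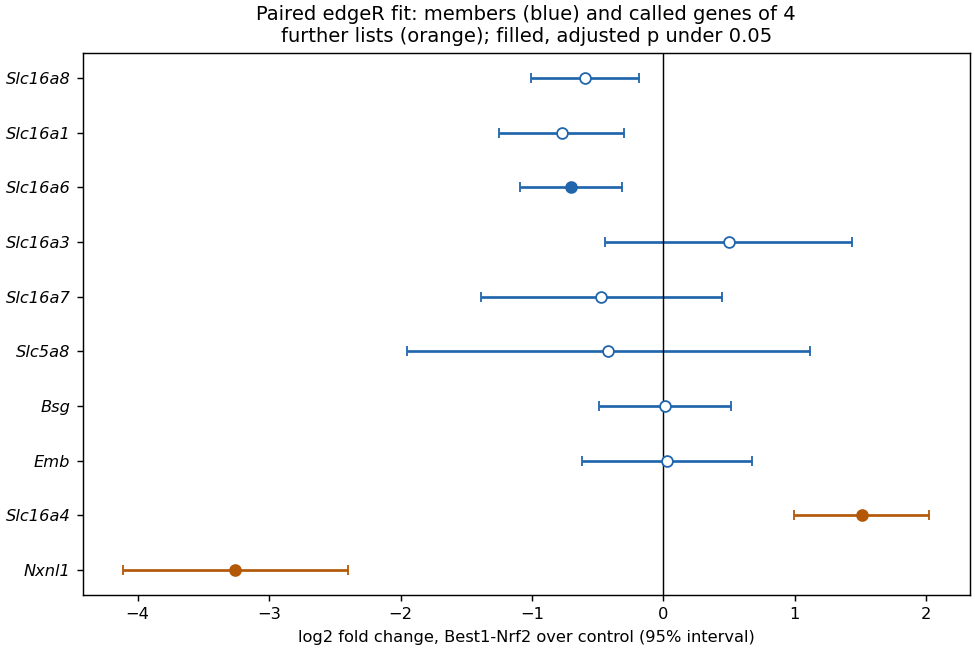
Log2 fold changes of Best1-Nrf2 over control eyes from the paired edgeR model with 95% intervals, for the 8 genes (blue) and for *Slc16a4* and *Nxnl1*, which passed in the 4 further lists (orange). Filled points passed at an adjusted p under 0.05, and the intervals of *Slc16a8*, *Slc16a1* and *Slc16a6* lie below 0.

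Markers of other cells and library totals are given beside these results. Cone markers were lower, with 9 of 10 genes called and a summed level of 298 to 2258 CPM in control and 54.1 to 534 CPM in Best1-Nrf2 eyes. Rod markers had 3 of 8 tested genes lower and 1 higher, with sums of 156 to 871 and 267 to 598 CPM and a median log2 fold change of -1.32. The sum with Best1-Nrf2 was mostly *Rom1*, the gene that was higher (400 ± 109 CPM, SD, n = 9), while *Sag*, *Pde6g* and *Gngt1* were lower, with log2 fold changes of -5.03, -4.79 and -4.34. Macrophage and microglia markers had 7 of 15 genes higher and none lower, with sums of 157 to 503 and 167 to 625 CPM. Endothelial (0 of 9), red blood cell (0 of 5 tested), skeletal muscle (0 of 9) and Müller glia markers (0 of 8) had no gene called, inner retina neuron markers had 1 of 14 higher, and fibroblast markers had 1 of 9 higher and 1 lower. No marker of any of these lists was without counts in all libraries. With the mean rod and cone marker level as a covariate, the log2 fold changes were -0.36 for *Slc16a8*, -0.76 for *Slc16a1* and -0.62 for *Slc16a6* (adjusted p from 0.438 to 0.689). With the mean macrophage and microglia marker level as a covariate they were larger in size than in the paired model, -0.86, -1.44 and -1.19 in the same order, and did not pass (adjusted p from 0.390 to 0.992). Among control eyes, the libraries of mice 1 and 9 were the largest and had the highest levels of these 3 carriers, and that of mouse 8 was the smallest and had the lowest. The part of these markers and totals in the results was not tested beyond the covariates. With the log2 library total as a covariate, the log2 fold changes were -0.67 for *Slc16a8* (adjusted p = 0.173), -0.98 for *Slc16a1* (0.0372) and -0.89 for *Slc16a6* (0.0151).

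**Figure D5:**
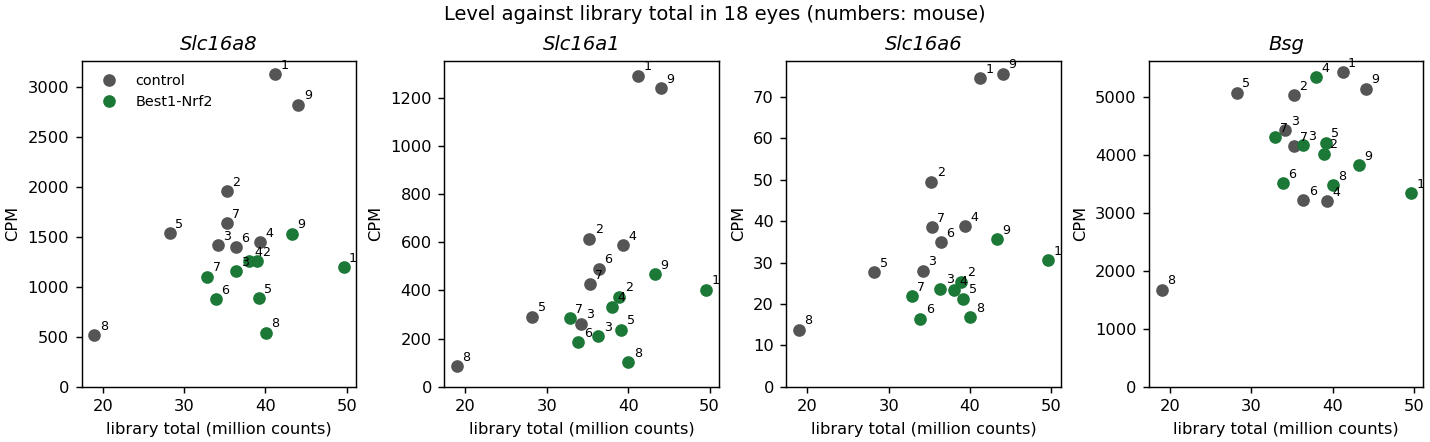
Level in CPM of 3 carriers and of *Bsg* against the library total in Mcounts, in 9 control (grey) and 9 Best1-Nrf2 (green) eyes numbered by mouse. Among control eyes, mice 1 and 9 have the largest libraries and the highest levels of *Slc16a8*, *Slc16a1* and *Slc16a6*, and mouse 8 has the smallest library and the lowest levels.

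Finally, the genes most like the 2 RPE carriers and *Bsg* were found by the correlation of log2 CPM over 18 libraries after removal of the group means, among 11786 genes whose mean on this scale was 2 or more. These are descriptions, as the libraries also share their totals. For *Slc16a8* they were *Fbxo27*, *Rdh10*, *Csad*, *Acsl6* and *Col8a1*, with coefficients from 0.96 to 0.98. For *Slc16a1* they were *Flvcr2*, *Inpp5k*, *Paqr4*, *Slc6a20a* and *Pja2*, from 0.980 to 0.995. For *Bsg* they were *Cabcoco1*, *Tspan3*, *Ush1c*, *Spg21* and *Clu*, from 0.94 to 0.97. Of these 15 genes, *Rdh10* (-0.73), *Flvcr2* (-0.83), *Inpp5k* (-1.20) and *Slc6a20a* (-1.14) were lower with Best1-Nrf2 and *Ush1c* (2.81) was higher over all genes tested, by log2 fold change.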

How the data were processed

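Poly(A) RNA of the RPE was amplified (Ultra Low kit) and sequenced as 18 libraries, without molecular identifiers, so counting precision covers counting error only. The authors checked reads with FastQC, and estimated transcript levels with Salmon 0.8.1 (submitters' processing notes), using mm10 and transcripts of Ensembl release 91, and also counted STAR alignments with featureCounts. The deposited table holds expected counts per gene as unscaled whole numbers. Which counter made it is not stated, and the unit was read from the values. Replicate numbers in the labels mark mice, and the paired model rests on them. After group means were removed, the 2 libraries of a mouse correlated with a median of -0.00095 (-0.37 to 0.64). The study names fewer pairs for this comparison than the 9 the labels give, and all 9 were used. The runs of the libraries are not given in the sources used here.

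Genes were filtered with filterByExpr in R 4.3.3, scaled by TMM and tested with the quasi-likelihood test of edgeR 4.0.16, with mouse as a block and Benjamini-Hochberg adjustment (threshold, 0.05). CPM used TMM-adjusted totals, log2 CPM a prior count of 2, and standard errors came from the F statistic. Ratios were tested by a 2-sided exact sign-flip permutation over mice. Exon lengths, positions and overlaps are from GENCODE M21 on GRCm38, the assembly of mm10. The 8 genes, the lists and the tests were chosen with earlier results of these data known. Named were the 8 genes, *Nfe2l2*, list genes past the threshold and the 5 genes most like *Slc16a8*, *Slc16a1* and *Bsg*. Other genes named were chosen after their values were seen. The settings also tried were no replicate block, RLE and upper-quartile scaling, DESeq2 1.42.0, limma 3.58.1 voom with sample weights, other count filters, marker covariates, leaving out each mouse, and, added after the data were seen, a covariate for library total and leaving out mice 1 and 9. Methods were tested on simulated data. No library was left out. The result of 1 further list is not reported here.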

Additional observations from a re-analysis of the deposited data

Results flagged for a closer look

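In 13 measures (the 8 genes, *Nfe2l2* and 4 ratios) the highest or lowest eye of each group was examined for a gap to the nearest other eye that was large against the range of its group. Of 26 groups of 9 eyes, 4 held such an eye, where 1.3 would by chance. All 4 were the control eye of mouse 8. On the log2 CPM scale it was the lowest for *Slc16a8* (9.01, the nearest eye being 10.4), *Bsg* (10.7, nearest 11.6) and *Slc16a7* (-1.56, nearest 0.45). For *Nfe2l2* it was the highest (7.06, nearest 6.60). This was also the smallest library, and no cause was tested.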

How the results depend on the processing

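By p adjusted over the 4 ratios, these had the same direction and side of the threshold under the alternatives run on them, other than *Bsg* minus *Slc16a1* without the replicate block (0.79, adjusted p = 0.0976, exact permutation test). The alternatives were a prior count of 0.5, no replicate block, leaving out each mouse and leaving out mice 1 and 9. No covariate or other tool was run on the ratios. Over all genes, the calls changed most with the tool and with covariates. DESeq2 gave 940 higher, 538 lower and 1478 in all, voom 924, 502 and 1426, the rod and cone covariate 38, 12 and 50, the RPE marker covariate 92, 11 and 103, and the macrophage covariate 46, 2 and 48, against 592, 214 and 806 in the paired edgeR model. The library-total covariate left 139 lower, and leaving out mice 1 and 9 left 82 lower and 489 in all. Leaving out 1 mouse gave 116 (mouse 1) to 320 (mouse 6) lower genes. Without the replicate block, 742 genes were called, 647 of them shared. None of the 8 genes was higher in any setting. The number lower, 1 in the paired model, was 0 with no count filter, without the replicate block, with each of the 3 marker covariates and without mice 1 and 9, 2 under upper-quartile scaling and with the library-total covariate, and 3 with DESeq2 and with voom. Leaving out 1 mouse gave 0, other than mouse 8, which gave 2. Directions turned as follows on the log2 scale. *Slc16a3* was -0.41 with the RPE covariate, and *Slc16a7* was 0.50 with the rod and cone and 0.74 with the RPE covariate. *Bsg* was -0.045 without the replicate block, -0.029 under upper-quartile scaling, -0.057 with voom, -0.0035 with at least 10 counts in every library, -0.22 with the macrophage and -0.10 with the library-total covariate, and -0.11 to 0.16 without single mice. *Emb* was -0.014 under upper-quartile scaling, -0.023 with voom, -0.49 with the macrophage and -0.17 with the library-total covariate, and -0.13 to 0.17 without single mice. The cause of these changes was not tested. *Slc16a3* and *Slc16a7* had the fewest counts of the 8 genes, 13 to 206 and 5 to 154 per library, and whether depth or the spread between eyes set their intervals was not tested.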

Other observations

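The values of 3 genes of lactate and pyruvate metabolism that did not pass are given, chosen after their values were seen. *Pcx*, pyruvate carboxylase, which makes oxaloacetate from pyruvate, averaged 106 ± 56.0 CPM and 236 ± 118 CPM, control first (SD, n = 9 per group), which was 1.12 on the log2 scale (SE 0.29, edgeR, adjusted p = 0.0530, higher in 8 of 9 mice). *Pdk4*, a kinase that switches off pyruvate dehydrogenase, had 4.29 ± 1.96 and 7.45 ± 3.07 CPM (0.79, SE 0.22, adjusted p = 0.0740, higher in 9 of 9 mice). *Ldhd*, the D-lactate dehydrogenase, had 5.22 ± 2.31 and 9.22 ± 3.68 CPM (0.83, SE 0.28, adjusted p = 0.158, higher in 7 of 9 mice). The subunits of pyruvate dehydrogenase and the mitochondrial pyruvate carrier (*Pdha1*, *Pdhb*, *Pdhx*, *Dlat*, *Dld*, *Mpc1* and *Mpc2*) had log2 fold changes from -0.20 to 0.14.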
